A study of Mus musculus with 12 samples.

Results

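The 10 genes described here are immediate early genes, which neurons transcribe within minutes of strong synaptic input without first making new protein. They were chosen by symbol as a list of activity-regulated genes, with no threshold on a measured value but with earlier results of these data known. The genes are Fos, Fosb, Junb, Egr1, Egr2, Egr3, Egr4, Arc, Npas4 and Nr4a1. All 10 were among the 12158 genes of the authors' expression table, which holds 44 RNA-seq libraries of bulk mouse forebrain. The study compared Chd8+/del5 mice, heterozygous for the del5 germline allele of the chromatin remodeller Chd8, with their WT littermates, all on the C57BL/6N strain. Per the labels, forebrain was taken from embryos at e12.5, e14.5 and e17.5 (days of gestation), from newborns (P0) and from adults labelled P56. The table has 8 libraries of e12.5, 9 of e14.5, 10 of e17.5, 11 of P0 and 6 of adults.

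The names of the libraries give the stage but not, in the labels' words, the genotype. Chd8+/del5 and WT libraries were therefore not assigned, the comparison between them was not made, and each stage below holds both genotypes. The values are read counts scaled by library size and gene length (RPKM) on a log2 scale, so levels may be compared between genes. The table gives no read totals, and the depth of each library is unknown. A gene is called higher, or said to have risen, where every library of the later stage lay above every library of the earlier stage, and lower in the opposite case. No p-value is given for the 10 genes. In bulk tissue, fewer cells of a type and less RNA per cell cannot be told apart.

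In neurons, calcium entering through NMDA receptors and voltage-gated channels activates calmodulin-dependent and MAP kinases. These kinases act on transcription factors already bound at the promoters of immediate early genes, chiefly CREB at cAMP response elements and SRF with its partners at CArG boxes. Most of the early products are themselves transcription factors that switch on later genes, while Arc is an effector that acts at the synapse. In cortex and hippocampus these genes are used as markers of recently active cells, and their mRNAs are short lived.

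RefSeq promoter windows of 300 bases, from 250 before to 50 after a transcript start (build GRCm38.p6), were held for 7 of the 10 genes: Fos, Fosb, Junb, Egr2, Egr4, Npas4 and Nr4a1. Egr1, Egr3 and Arc were not matched. The 250 bases before the start are printed for Fos, Junb and Egr4, the genes of the 7 in which these bases met no annotated gene. Capitals mark TGACG, the core of the cAMP response element, on either strand (CGTCA where it lies on the other strand).

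Fos, chr12:85473640-85473889, plus strand: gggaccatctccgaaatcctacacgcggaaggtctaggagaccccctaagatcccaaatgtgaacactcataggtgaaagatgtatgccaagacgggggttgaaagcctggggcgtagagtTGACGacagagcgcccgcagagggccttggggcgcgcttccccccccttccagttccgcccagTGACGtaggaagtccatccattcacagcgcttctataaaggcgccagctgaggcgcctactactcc

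Junb, chr8:84978749-84978998, minus strand: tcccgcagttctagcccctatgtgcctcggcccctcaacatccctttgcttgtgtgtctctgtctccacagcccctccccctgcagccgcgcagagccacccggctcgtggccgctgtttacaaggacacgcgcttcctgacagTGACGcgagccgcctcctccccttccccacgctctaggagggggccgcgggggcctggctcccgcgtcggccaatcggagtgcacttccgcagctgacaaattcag

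Egr4, chr6:85513590-85513839, minus strand: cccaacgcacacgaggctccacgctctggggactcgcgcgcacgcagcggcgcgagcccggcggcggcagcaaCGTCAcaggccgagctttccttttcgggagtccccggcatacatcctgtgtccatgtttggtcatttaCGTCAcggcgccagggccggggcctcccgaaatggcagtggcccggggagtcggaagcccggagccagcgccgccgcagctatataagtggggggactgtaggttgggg

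Counting the base before the start as -1, the core began at -129 and -66 in Fos, at -106 in Junb, and at -177 and -109 in Egr4. It was found on either strand in all 7 matched genes, Nr4a1 holding 4 copies, against 20.8% of 32851 promoter windows of the same length and 30.9% of the windows of genes in the expression table. The whole element TGACGTCA was in none of the 7, against 1.79% of all windows and 3.07% of those of genes in the table. The CArG box was found in Egr2, against 1.63% of all windows and 1.31% of those of table genes, and in no other of the 7. The Egr site GCGGGGGCG was in Fosb and Nr4a1, against 2.91% and 5.72%. The TATA box TATAAA was in Fos and Junb, against 13.6% and 6.74%, and the AP-1 site TGANTCA was in none of the 7, against 7.81% and 4.55%. The core lies within the whole element, so a whole element would count for both. The shares above are of windows, while a gene was counted if any of its windows held a match. Of 27025 genes so counted, 23% held the core, 2.03% the whole element and 1.81% the CArG box. The Egr site was held by 3.31%, the TATA box by 15.7% and the AP-1 site by 8.97%. Egr2 had 5 windows, of which those numbered 3, 4 and 5 held the core, and the other matched genes had 1 each. All are matches of letters within 1 window per start, and a missing match says nothing of sites elsewhere.

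A few libraries stood apart from others of their stage. P0 library 10 (libraries carry a number within their stage, used only as a name) had the highest level of the 11 for progenitor and new neuron markers, at 0.39 above the P0 median on the log2 scale, and the lowest for mature neuron markers, at -0.37. Adult library 1 had progenitor and new neuron markers at 2.43 above the adult median, with the other 5 between -0.43 and -0.01. Adult library 4 had the highest levels of astrocyte markers (0.49) and oligodendrocyte markers (0.28) of the 6. Calls, widths and co-variation that rest on them are given with and without them. The e17.5 libraries have names of 2 series with 5 libraries each, between which 1 of 12102 genes and none of the 10 had ranges apart.

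The 10 genes were low in embryonic forebrain, where the medians of all 10 lay within the lowest 21.9% of genes at each of the 3 embryonic stages. In adults 7 of the 10 lay above the median gene, and Egr2, Fosb and Npas4 lay at the 23.8th, 34.5th and 42.3rd percentiles. Between e12.5 and adult, the ranges of all 10 lay apart, with every adult library above every e12.5 library by at least 3.08 on the log2 scale. The adult median was higher than the e12.5 median by 4.41 for Nr4a1, which moved least, and by 6.99 for Egr3. Only Fosb and Egr4 moved more, from e12.5 medians that rest on few or no reads. Medians were higher at all 4 steps from stage to stage for 8 of the 10, and at 3 of 4 for Fos and Egr1, whose medians were lower at e14.5 than at e12.5 by less than the spread. For each of the 10 the step from P0 to adult was the largest.

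**Figure D1:**
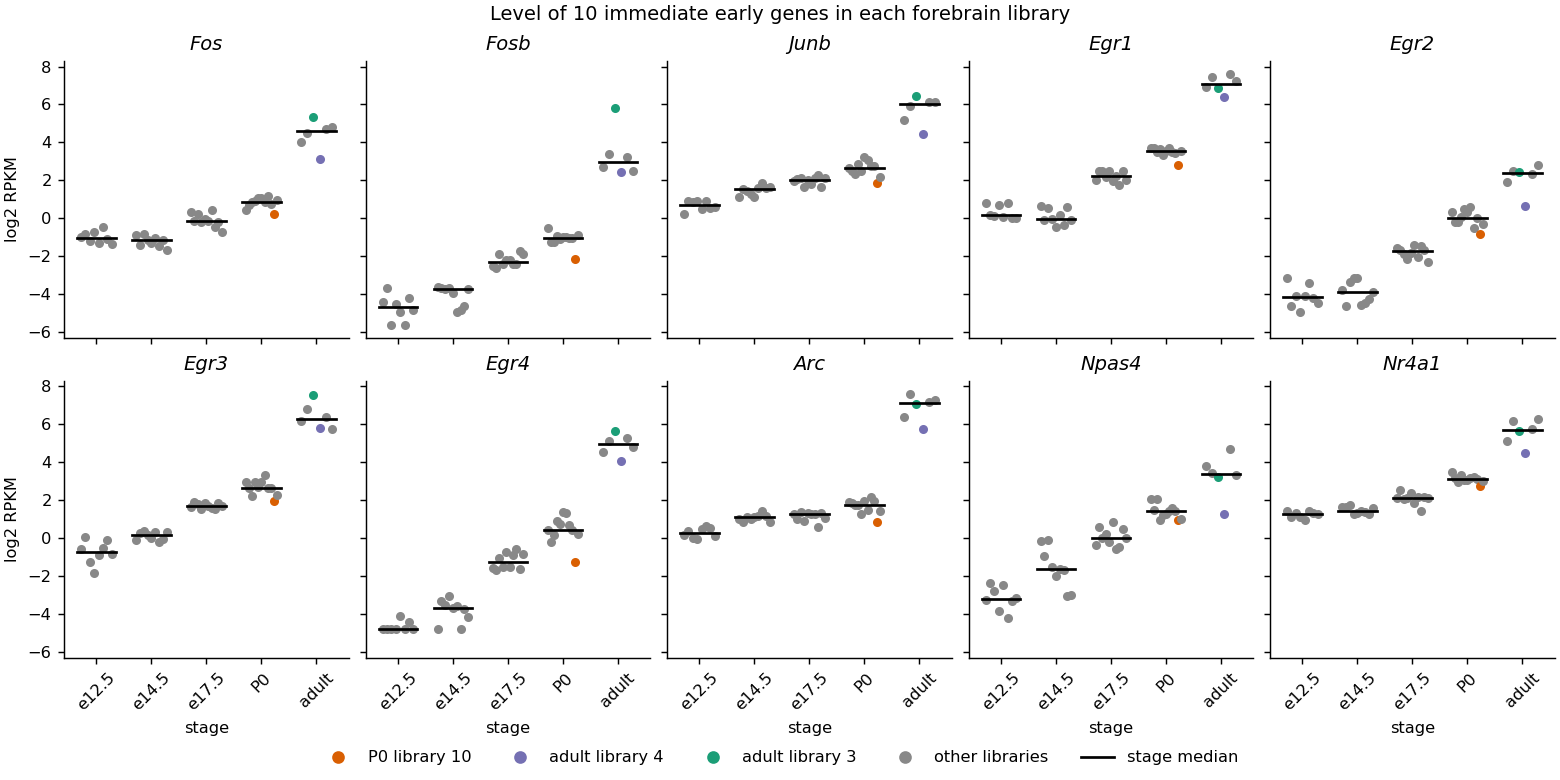
Level in log2 RPKM (vertical axis) of each of the 10 genes in every library, by stage (horizontal axis), with the stage median as a bar. In all 10 panels the adult points lie above the e12.5 points, and P0 library 10 is the lowest of its stage in each.

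Fos, Fosb and Junb encode subunits of AP-1, a dimeric transcription factor in which a Fos protein pairs with a Jun protein. Fos had a lowest, median and highest level of -1.33, -1.03 and -0.48 log2 RPKM at e12.5 and of -1.65, -1.14 and -0.82 at e14.5. It reached -0.71, -0.14 and 0.43 at e17.5, 0.21, 0.85 and 1.15 at P0, and 3.12, 4.58 and 5.32 in adults. Fos thus rose between e14.5 and e17.5, with a median difference of 1.0, and between P0 and adult, with 3.73, while its e12.5 and e14.5 ranges overlapped, as did its e17.5 and P0 ranges.

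Fosb, whose product includes a long-lived truncated isoform, was close to undetected in the early embryo. Its value was at a floor of -5.64, shared by libraries with no read, in 2 of 8 libraries of e12.5, and the steps above the floor put the others at up to 6 reads. At e14.5 they put all 9 libraries at 1 to 5 reads. Differences between libraries at these stages therefore rest on a few reads. Fosb had a median of -2.29 at e17.5 (range -2.60 to -1.73), -1.03 at P0 (-2.14 to -0.50) and 2.98 in adults (2.44 to 5.81). It rose between e14.5 and e17.5 by 1.43, and between P0 and adult by 4.0. The mean of Fosb over all libraries was under the -2 log2 RPKM required of the genes counted as background, so 9 of the 10 genes passed that filter and Fosb did not.

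Junb, a Jun subunit that can restrain other AP-1 dimers, was among the better expressed of the 10 from the start. Its lowest, median and highest levels were 0.23, 0.72 and 0.92 log2 RPKM at e12.5, 1.12, 1.52 and 1.85 at e14.5, and 1.66, 2.03 and 2.26 at e17.5. They were 1.88, 2.66 and 3.23 at P0 and 4.45, 6.01 and 6.42 in adults. Junb was higher at e14.5 than at e12.5 by 0.80, a call lost after quantile normalization (0.41). The ranges of Fos, Fosb and the Egr genes overlapped at that step. Junb rose between P0 and adult by 3.34, with overlapping ranges at the steps between.

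The Egr genes encode zinc finger transcription factors that bind the same GC-rich site. All 4 rose between e14.5 and e17.5. Egr1, the most abundant of them in adults, had lowest, median and highest levels of 0.02, 0.17 and 0.82 log2 RPKM at e12.5 and of -0.48, -0.04 and 0.66 at e14.5. It then had 1.78, 2.22 and 2.52 at e17.5, 2.83, 3.55 and 3.73 at P0, and 6.40, 7.07 and 7.62 in adults. Egr1 thus rose at each of the last 3 steps, by 2.26, 1.33 and 3.52.

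Egr3, which acts downstream of Egr1 in some settings and is needed for muscle spindles, rose at the same 3 steps. Its medians were -0.71 at e12.5, 0.13 at e14.5, 1.68 at e17.5, 2.66 at P0 and 6.28 in adults, and its differences at those steps were 1.55, 0.98 and 3.62. Egr2, known as Krox20 in hindbrain and Schwann cells, was the lowest of the 10 in adults at a median of 2.38 (0.67 to 2.78). It had medians of -4.16 at e12.5, -3.87 at e14.5, -1.75 at e17.5 and 0.02 at P0, and rose at the last 3 steps by 2.12, 1.76 and 2.37. Egr3 ran from 1.52 to 1.92 over e17.5 libraries and from 1.93 to 3.32 at P0 (from 2.20 without P0 library 10). Egr2 ran from -2.33 to -1.43 at e17.5 and from -0.81 to 0.60 at P0 (from -0.52 without that library).

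Egr4 went from almost no reads to a high level. At e12.5, 6 of 8 libraries were at its floor of -4.79 and the steps above it put the other 2 at 1 read. At e14.5, 2 of 9 libraries were at the floor and the highest had 4 reads. Because the e12.5 median is the floor itself, no fold against e12.5 is given. Egr4 had a median of -1.29 at e17.5 (-1.69 to -0.57), 0.44 at P0 (-1.29 to 1.40) and 4.97 in adults (4.08 to 5.65), and rose between e14.5 and e17.5 and between P0 and adult, the latter by 4.53.

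Arc encodes a capsid-like protein that drives removal of AMPA receptors from synapses. Its lowest, median and highest levels were -0.08, 0.27 and 0.64 log2 RPKM at e12.5, 0.82, 1.08 and 1.41 at e14.5, and 0.59, 1.24 and 1.37 at e17.5. They were 0.83, 1.76 and 2.17 at P0 and 5.77, 7.10 and 7.58 in adults. Like the Egr genes, it was called higher in adults than at P0. Its other call fell at a step where none of theirs did, a difference that was not itself tested. Arc was higher at e14.5 than at e12.5 by 0.82, a call lost after quantile normalization (0.27) at a step where 23.1% of all genes were higher. Its ranges overlapped from e14.5 through P0, and it rose between P0 and adult by 5.34, or 40.6-fold, the largest step of the 10. Arc was 5th in level among the 10 at P0 and 1st in adults, where its median of 137 RPKM lay at the 96.3rd percentile of all genes.

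Npas4, a neuron-restricted bHLH-PAS factor induced by calcium entry, had the smallest step to adult. Its lowest, median and highest levels were -4.21, -3.22 and -2.36 log2 RPKM at e12.5, -3.06, -1.63 and -0.11 at e14.5, and -0.58, -0.02 and 0.85 at e17.5. They were 0.92, 1.41 and 2.06 at P0 and 1.28, 3.36 and 4.70 in adults. Npas4 rose between e17.5 and P0 by 1.43, and its adult and P0 ranges overlapped through adult library 4 alone, with a median difference of 1.95. Without that library the ranges were apart and the difference was 2.0.

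Nr4a1, an orphan nuclear receptor also known as Nur77, was the highest of the 10 at e12.5. Its lowest, median and highest levels there were 0.97, 1.29 and 1.41 log2 RPKM. Its medians were 1.43 at e14.5, 2.11 at e17.5, 3.11 at P0 and 5.70 in adults. Nr4a1 rose between e17.5 and P0 by 1.0 and between P0 and adult by 2.58, and at the 2 earlier steps its ranges overlapped.

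Set in order of level, the 10 genes at e12.5 ran from Nr4a1 through Junb, Arc, Egr1, Egr3, Fos, Npas4, Egr2 and Fosb to Egr4. Neighbours in that order had overlapping ranges except for Nr4a1 over Junb and Fos over Npas4. In adults the order was Arc, Egr1, Egr3, Junb, Nr4a1, Egr4, Fos, Npas4, Fosb and Egr2, and the ranges of each pair of neighbours overlapped. Fos, the gene most used as an activity marker, was thus 7th in adults at a median of 23.9 RPKM, against 134 RPKM for Egr1.

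Counted over the 10 genes, 2 were higher at e14.5 than at e12.5 (Junb and Arc) and none lower, beside 23.1% of all 12102 genes called higher and 22.3% lower. That share is near the background. Neighbouring steps share the libraries of the stage between them. At e17.5 against e14.5, 6 were higher and none lower, beside 13.1% of all genes higher and 12.1% lower. At P0 against e17.5, 5 were higher (Egr1, Egr2, Egr3, Npas4 and Nr4a1) and none lower, beside 4.89% higher and 6.28% lower. In adults against P0, 9 were higher and none lower, beside 29.3% higher and 25.2% lower. The median difference over the 10 was 0.81, 1.49, 1.13 and 3.57 at these steps, while that over all genes was between -0.03 and 0.03.

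**Figure D2:**
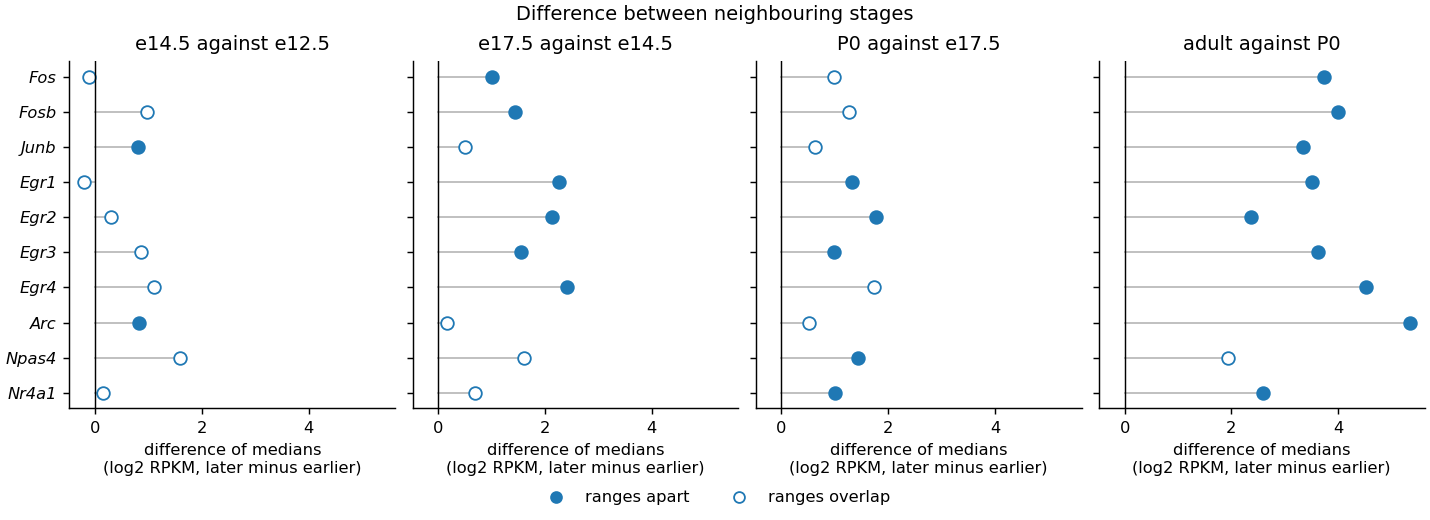
Difference of stage medians (horizontal axis, log2 RPKM, later minus earlier) for each of the 10 genes at the 4 steps between neighbouring stages; filled points have ranges apart. Differences are largest in the panel of adult against P0, from 1.95 for Npas4 to 5.34 for Arc.

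Libraries of e12.5 were sequenced differently from the rest, as paired ends, and e17.5 holds 2 series of names. Xist, a transcript of female cells, was above 0 log2 RPKM in 9 of 11 P0 libraries and in 1 of 6 adult libraries. The part of sex in the difference between P0 and adult was not tested. Compared across e17.5, 9 of the 10 were higher at P0 than at e14.5 and none lower, beside 22.7% and 23.1% of all genes, and Arc was the 1 that overlapped. Without P0 library 10, 7 in place of 5 were higher at P0 than at e17.5, as Fosb and Egr4 were added. Without adult library 1, 9 were higher in adults than at P0, and without adult library 4 all 10 were. Leaving out a library can only add calls, for any gene, and the shares of all genes were not computed without these libraries. After quantile normalization of the libraries none of the 10 was higher at e14.5 than at e12.5 and Fos was lower, with a difference of -0.95.

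Markers of mature neurons and some of those of glia were higher along with the 10 genes. Of 12 mature neuron markers, 7, 7, 4 and 12 were higher at the 4 steps in turn and none lower. Their median differences were 0.98, 0.74, 0.63 and 2.26. Of all genes, 23.1%, 13.1%, 4.89% and 29.3% were higher at these steps. Snap25, of the machinery of synaptic vesicle release, went from a median of 7.26 log2 RPKM at P0 to 11.09 in adults, and Camk2a, the alpha subunit of CaM kinase II, from 5.14 to 9.58. The difference between P0 and adult was above the median of the neuron markers for 9 of the 10 immediate early genes and above the highest of them (Camk2a) for 2. At the 3 earlier steps in turn, 2, 7 and 9 of the 10 lay above the marker median. In adults against P0, 7 of 9 oligodendrocyte markers, 8 of 8 microglia markers and 5 of 8 astrocyte markers were also higher and none lower. Their median differences were 3.20, 2.19 and 1.57. At the 3 earlier steps in turn, 4, 4 and 3 astrocyte markers were higher and none lower, with median differences of 1.24, 0.73 and 0.57. Of the oligodendrocyte markers 3, 5 and 2 were higher and 1, 0 and 0 lower, and of the microglia markers 4, 2 and 0 were higher and none lower. The part of cell content in the rise of the 10 genes was not tested.

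The other rapid response genes, a list of 40 transcripts induced by many stimuli in many cells of which 32 were in the table, did not follow the same course. At e17.5 against e14.5, 6 were higher and 10 lower, beside 13.1% and 12.1% of all genes, with differences of 1.74 for Fosl2, 1.48 for Nr4a3, -1.90 for Btg2 and -1.33 for Gadd45g. Fosl2 is a further Fos-family subunit and Nr4a3 a relative of Nr4a1, while Btg2 and Gadd45g are known in neural progenitors leaving the cell cycle. At P0 against e17.5, 2 were higher, Myc by 0.67 and the clock gene Per1 by 0.64, and none lower, beside 4.89% and 6.28% of all genes. In adults against P0, 12 were higher and 7 lower, beside 29.3% and 25.2% of all genes, Gadd45b and Csrnp1 being higher by 3.17 and 3.14 while the growth regulator Myc had a difference of -3.80. The median difference of the list at this last step was 0.52, against 3.57 for the 10 genes.

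Of 25 delayed response and effector genes, which activity induces later or which carry out its effects, 10, 7, 1 and 13 were higher at the 4 steps and 3, 4, 1 and 2 lower. Of all genes, 23.1%, 13.1%, 4.89% and 29.3% were higher at these steps and 22.3%, 12.1%, 6.28% and 25.2% lower, so that the counts at P0 against e17.5 are near the background. Ptgs2, the inducible cyclooxygenase, was higher in adults than at P0 by 6.59, Rasgrp1, a Ras activator, by 4.45, the potassium channel Kcna1 by 4.33 and the synaptic pentraxin Nptx1 by 4.14. Vgf, a neuropeptide precursor, was higher at P0 than at e17.5 by 1.94. The list's median difference was 0.16 at that step.

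Among the upstream components, 36 genes of calcium and kinase signalling had 19, 16, 5 and 19 genes higher at the 4 steps and 2, 1, 0 and 1 lower, against the same shares of all genes. The NMDA receptor subunit Grin1 was higher at P0 than at e17.5 by 1.3, and Grin2c, Camk2a, Grin2a and the kinase Map2k1 were higher in adults than at P0 by 4.58, 4.44, 3.35 and 3.23. Of 20 measured transcription factors and cofactors that act on immediate early genes, 8 were higher in adults and 2 lower, beside 29.3% and 25.2% of all genes, with a median difference of 0.29. Mkl2, a coactivator of SRF, was higher by 2.14, Nab2, a corepressor of Egr proteins, by 1.67, and Elk4, an SRF partner, by 1.01. Mef2c, a calcium-responsive factor, was higher at e14.5 than at e12.5 by 1.67 and at e17.5 than at e14.5 by 2.44.

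Within a stage, most of the 10 genes varied more between libraries than the median gene did, the exceptions being Nr4a1 at e14.5 and Egr3 at e17.5. The distance from the lowest to the highest library had a median over the 10 of 0.83 at e12.5, 0.98 at e14.5, 0.88 at e17.5, 1.34 at P0 and 1.90 in adults. Over all genes the medians were 0.35, 0.56, 0.56, 0.52 and 0.59. In adults the highest library exceeded the lowest by 10.7-fold for Npas4, 10.4-fold for Fosb and 2.33-fold for Egr1, the narrowest of the 10. These widths rested partly on single libraries. Without P0 library 10 the median width over the 10 was 0.98 at P0, and without adult library 4 it was 1.23 in adults, beside 0.51 over all genes in each case. The fold of Npas4 in adults was 2.80 without library 4, and that of Fosb was 1.90 without library 3. Fosb and Egr4 had only a few reads at e12.5 and e14.5, as given above. Egr2 was about as low there, with medians of 0.056 and 0.068 RPKM, against 0.039 and 0.076 for Fosb. Npas4 was also low, with medians of 0.107 and 0.323 RPKM and widths of 1.85 and 2.95 at those stages. The part of counting error in the widths of Fosb, Egr2, Egr4 and Npas4 there was not tested. The widths over all genes were not matched to the 10 for level.

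Whether the genes varied together between libraries of a stage differed by stage. Pearson's r was taken for each of the 45 pairs, as a description with no p-value, since libraries of a stage mix genotypes and sexes. The median r was -0.0014 over 8 libraries at e12.5, 0.078 over 9 at e14.5 and 0.014 over 10 at e17.5. At those stages 2, 1 and 3 pairs reached an r of 0.7, or 4.44%, 2.22% and 6.67%, beside 5.39%, 8.05% and 4.41% of all pairs of genes. The pairs of immediate early genes thus held no more such values than pairs of genes in general at e12.5 and e14.5, and about as many at e17.5. Fosb, Egr2 and Egr4 were close to undetected at e12.5 and e14.5. The part of counting error in the low r at those stages was not tested.

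At P0 and in adults the picture differed. The median r was 0.60 over 11 libraries at P0, with 12 pairs (26.7%) at 0.7 or above beside 4.29% of all pairs. In adults it was 0.70 over 6 libraries, with 23 pairs (51.1%) beside 10.7%. Ranks gave lower values, with a median Spearman's rho of 0.37 at P0 and 0.49 in adults. The closest pairs in adults were Fos with Junb (r of 0.98), which form 1 dimer, Arc with Nr4a1 (0.98) and Fosb with Egr3 (0.94), and the closest at P0 were Junb with Egr3 and Junb with Egr4 (0.90 and 0.89). Npas4 followed the others least at P0, with a median r of 0.19.

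The co-variation at both stages rested in large part on 1 library each. Without P0 library 10 the median r was 0.17 and 4 pairs were at 0.7 or above, namely Junb with Egr3 and Egr4 and Egr3 with Egr2 and Egr4. Without adult library 4 the median was 0.38 with 11 such pairs, over 5 libraries, and Fos with Junb had an r of 0.95. Without adult library 1 it was 0.76 with 27 pairs, and without adult library 3 it was 0.83 with 29. Leaving out the 2 libraries farthest from the median level gave 0.19 at P0 and -0.24 over the 4 that remained in adults. Leaving out adult libraries 4 and 3 instead, also with 4 remaining, gave 0.52 with 19 pairs at 0.7 or above. The share of all gene pairs at 0.7 or above was not computed for these reduced sets. That share can be larger over fewer libraries, so these counts cannot be set against the 4.29% and 10.7% of the full sets.

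**Figure D3:**
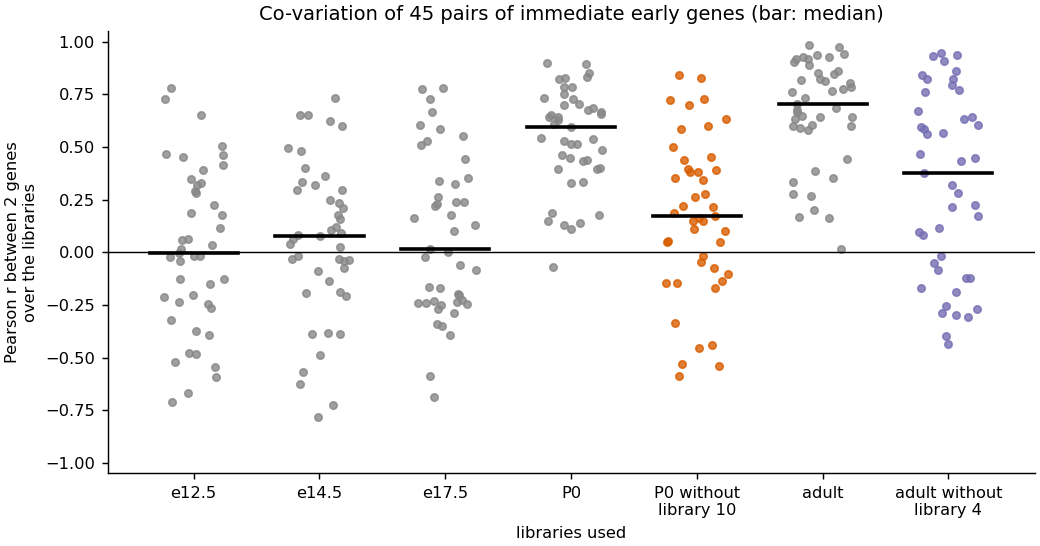
Pearson's r (vertical axis) of each of the 45 pairs of immediate early genes over the libraries named on the horizontal axis, with the median as a bar. The medians of 0.60 at P0 and 0.70 in adults drop to 0.17 and 0.38 once P0 library 10 or adult library 4 is left out.

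P0 library 10 was the lowest of 11 for each of the 10 genes. Egr4 was at -1.29 there, against -0.23 to 1.40 in the other 10 libraries, and Fosb at -2.14 against -1.24 to -0.50. The mean over the 10 genes of the difference from the P0 median, called the level of the 10 below, was -0.83 in this library and between -0.20 and 0.26 in the others. For 5 of the 10 genes its value lay within the range of e17.5.

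That library also lay between P0 and e17.5 in other genes. Over 157 genes outside the 10 whose other P0 libraries were all above or all below e17.5 and whose stage medians differed by at least 1, it was 38.3% of the way back from the P0 median to the e17.5 median, against -27.0% to 22.9% in the other P0 libraries, each measured over its own set of genes chosen in the same way. For the 10 genes the median was 70.0%. Its level of calcium and kinase signalling genes was the lowest of 11 (-0.22), while its level of other rapid response genes was the highest (0.13). It was also the highest of 11 for meningeal and choroid plexus markers (0.42), blood cell markers (0.34) and hypoxia response genes (0.053). The parts of developmental age and cell content in the low level were not tested.

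Adult library 4 was the lowest of 6 for 9 of the 10 genes, Egr3 being lower in library 6 (5.73 against 5.80). The difference from the adult median there was -2.08 for Npas4, -1.71 for Egr2, -1.56 for Junb, -1.46 for Fos, -1.33 for Arc and -1.21 for Nr4a1. The level of the 10 was -1.19 in this library, -0.37 in adult library 1 and between 0.04 and 0.56 in the other 4. Unlike P0 library 10, it did not lie toward the earlier stage in other genes, being -1.2% of the way back to P0 over 3554 genes, while the median over the 10 was 33.1%. Adult library 1, whose progenitor markers were high, was 33.3% of the way back over 3959 genes and 13.6% for the 10.

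Other lists were also low or high in adult library 4. Its levels of other rapid response genes (-0.25), upstream transcription factors (-0.18) and calcium and kinase signalling genes (-0.13) were the lowest of the 6, and its level of mature neuron markers was the 3rd from the lowest (-0.03). Astrocyte and oligodendrocyte markers were the highest of the 6, as given above, and heat shock genes were the 2nd highest at 0.30. Meningeal and choroid plexus markers were at 1.09 in library 4 and at 1.20 and 1.18 in libraries 1 and 6, against -1.24 to -0.61 in libraries 2, 3 and 5. The part of cell content or handling in the low level was not tested.

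**Figure D4:**
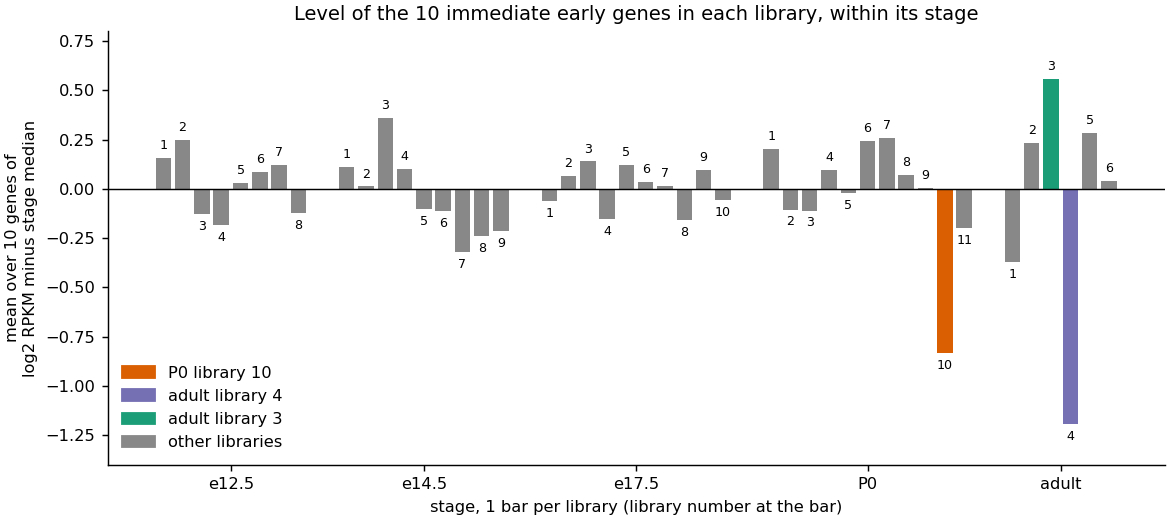
Level of the 10 genes in each library (vertical axis: mean over the genes of log2 RPKM minus the stage median), 1 bar per library by stage. P0 library 10 at -0.83 and adult library 4 at -1.19 lie below the other libraries of their stages.

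Adult library 3 was high in some of the 10 and not in others. It was the highest of 6 for Fos, Fosb, Junb, Egr3 and Egr4. Fosb was at 2.71, 3.37, 5.81, 2.44, 3.24 and 2.48 log2 RPKM in libraries 1 to 6, so that library 3 was 2.83 above the median while the other 5 lay between -0.54 and 0.39 from it. Egr3 was 1.27 above its median there, Fos 0.74 and Egr4 0.68. Arc, Egr1, Npas4 and Nr4a1 were between -0.19 and -0.04 from their medians in the same library. Library 3 was also the highest of the 6 for delayed response and effector genes (0.68, next 0.14) and for other rapid response genes (0.37, next 0.075). Npas4 and Egr1 were instead highest in library 5, at 1.34 and 0.56 above their medians.

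**Figure D5:**
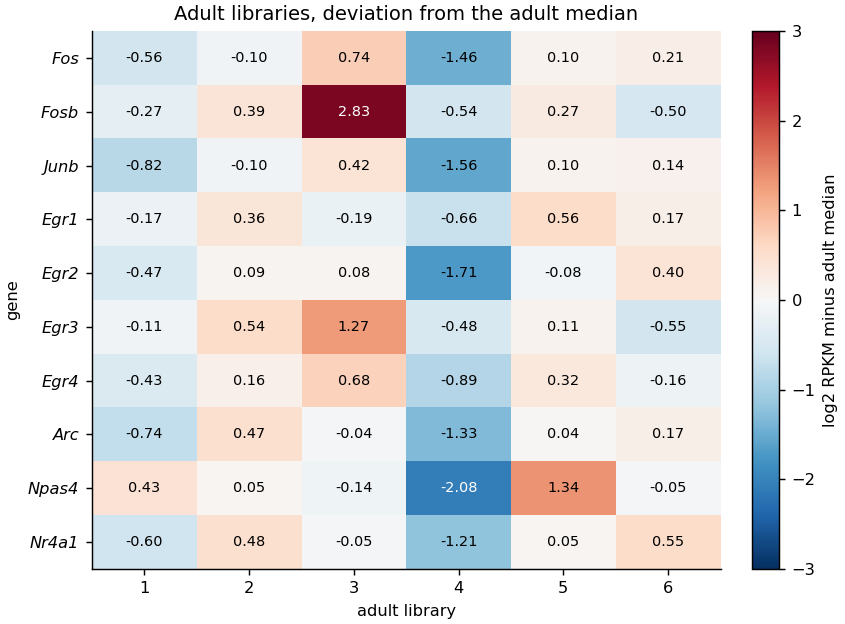
Difference of each adult library (columns 1 to 6) from the adult median for each of the 10 genes (rows), in log2 RPKM, by colour and printed value. The column of library 4 is negative in all 10 rows, down to -2.08 for Npas4, and Fosb in library 3 is the highest value at 2.83.

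The level of the 10 was set beside the levels of other lists within each stage, again as a description over few libraries. Calcium and kinase signalling genes went with it at P0 (r of 0.79, rho of 0.73, and r of 0.72 without the 2 libraries farthest from the median) and in adults (0.93, 0.94 and 0.78 over 4). At P0 the level of progenitor and new neuron markers went the other way (r of -0.71, rho of -0.66), as did that of endothelial and mural markers (-0.67 and -0.69). In adults meningeal and choroid plexus markers went the other way (-0.73 and -0.66). Other rapid response genes had an r of -0.39 at P0 and 0.84 in adults. At e14.5 they went the other way (r of -0.81, rho of -0.93, and r of -0.83 without the 2 farthest libraries). At e12.5 their r was -0.70, but 0.10 without the 2 farthest. Heat shock genes also went the other way at e14.5 (-0.74, -0.80 and -0.66). At that stage so did meningeal and choroid plexus markers (-0.77, -0.68 and -0.35) and hypoxia response genes (-0.70, -0.52 and -0.55). Microglia markers did too (-0.67, -0.83 and -0.39), while the median of all genes went with the level of the 10 (0.72, 0.78 and 0.59). The pairs of the 10 had a median r of 0.078 there. Upstream transcription factors went with the level of the 10 at e12.5 (0.75, 0.79 and 0.83). At e17.5 the r of every list lay between -0.36 and 0.29. Chd8 had an r of -0.47 at P0 (rho of -0.56) and 0.23 in adults (rho of 0.20). Without the 2 farthest libraries its r was -0.67 at P0 and -0.70 over the 4 adult libraries left, so its sign in adults turned. Mature neuron markers had an r of 0.49 at P0 and 0.42 in adults (rho of 0.13 and 0.77). Without the 2 farthest libraries these were 0.20 and 0.73.

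Outside the 10, the genes most like them over all 44 libraries, each centred on its stage median, were ranked by r with the level of the 10 among 11801 genes whose mean reached 0 log2 RPKM. The first 10 were Herc3 (0.72), Nos1ap (0.63), Pitpnm2 (0.62), Tmem181a (0.61), Dlg3 (0.61), Mkl2 (0.61), Klf10 (0.60), Stx1a (0.60), Plcb1 (0.60) and Ppp3ca (0.59). Mkl2 and Ppp3ca, a catalytic subunit of calcineurin, belong to the upstream lists, and Stx1a encodes a syntaxin of the synaptic vesicle release machinery. Klf10 was the 1 gene of 31 other rapid response genes among the first 100, and none of 23 delayed genes was among them. Taken by stage, the r of the first 10 genes lay between 0.52 and 0.93 at P0 and between 0.74 and 0.96 in adults. At e17.5 it lay between -0.47 for Pitpnm2 and 0.48 for Herc3. Klf10 had an r of -0.15 at e12.5 and -0.45 at e14.5. Without P0 library 10 and adult library 4, Herc3 remained 1st at 0.67 and Nos1ap was 9th, while the other 8 had ranks 30 to 437.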

How the data were processed

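RNA was measured in bulk forebrain of Chd8+/del5 and WT mice. Per the labels' protocols, libraries were stranded, made from polyadenylated RNA and read as single ends of 50 bp, those of e12.5 as paired ends of 100 bp. The submitters' processing notes name the build mm9 and, with no roles given, MACS2 2.10, BWA 0.7.13, STAR 2.4.2a and bcl2fastq. The authors deposited log2 RPKM values for 12158 genes. The log base was read from the values, in which low genes move in whole steps above a shared floor. Not given in the sources used here are the read counter, annotation, filter and prior.

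Of the 44 columns, 0 matched 1 of the 10 RNA samples in the labels, as names give the stage alone, so each stage was described by its lowest value, median and highest value, and the planned test of genotype was not run. The labels do not say that each library is 1 animal. Calls were made for all 12102 genes with a mean above -2 log2 RPKM. Reads of low genes were taken from the steps above the floor for e12.5 and e14.5. Alternatives were quantile normalization, other filters, an added RPKM of 1 before the log, rho in place of r, and leaving out each library. Scripts used Python 3.11.15 with numpy 2.4.6 and pandas 2.3.3 and were tested on simulated data. All 10 genes were named. From each related list up to 4 called genes with the largest difference were named in a comparison described. The genes and lists were chosen with earlier results of these data known. The peak list was not used here.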

Additional observations from a re-analysis of the deposited data

Results flagged for a closer look

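Fosb in adult library 3 stood at 5.81 log2 RPKM, separated from the next highest of the 6 adult libraries (3.37) by a gap that exceeds the 95% critical value of Dixon's test for its group. P0, with 11 libraries, was not searched. Of the 44 sets of 4 to 10 libraries searched, this was the 1 with such a library, and 2.2 would be expected by chance at 1 in 20.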

How the results depend on the processing

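The table holds no read totals, the genotype of the libraries is not assigned, and adults number 6, which limits the precision of every range and r. With quantile normalization, 0 genes were higher and 1 was lower at e14.5 than at e12.5, and at that step Egr2 and Nr4a1 turned to -0.64 and -0.022. Counting only genes whose mean reached 0 log2 RPKM, which leaves fewer of the 10 to count, gave 3 higher at e17.5 against e14.5, 3 at P0 against e17.5 and 5 at P0 against e14.5. The shares of all genes under that filter are not given here. The median r between the genes was 0.12 at e12.5 and 0.18 at e17.5 after quantile normalization, and 0.37 at P0 and 0.49 in adults as rho. Without the 2 libraries farthest from the median it was 0.13 at e12.5, -0.11 at e14.5, 0.19 among P0 libraries and -0.24 among adults; the cause was not tested. Leaving out each library in turn gave 2 to 2, 6 to 7, 5 to 7 and 9 to 10 higher at the 4 steps from e12.5 to adult and 9 to 9 at P0 against e14.5, with 0 to 0 lower at each. The shares of all genes were not computed for these reduced sets. Leaving out each library also bore on the co-variation. It gave a median r of -0.051 to 0.077 at e12.5, -0.058 to 0.15 at e14.5, -0.0067 to 0.099 at e17.5, 0.17 to 0.65 at P0 and 0.38 to 0.83 in adults. Of 1160 recomputed differences of single genes, 1143 kept their direction and call, 5 lost the call, 10 gained it and 2 turned. No paired analysis was possible because the columns carry no replicate numbers from the labels. The alternatives without P0 library 10, without adult libraries 1, 3 or 4, and with 1 series of e17.5 names were chosen after seeing the data.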
